A study of Homo sapiens with 4 samples.

Results

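CPS1, the mitochondrial carbamoyl phosphate synthetase of the urea cycle, was described together with 9 genes that act around it: its activator enzyme NAGS, the ornithine carrier SLC25A15, the urea cycle enzymes ASS1, ASL and ARG1, the second arginase ARG2, ornithine aminotransferase OAT, ornithine decarboxylase ODC1 and the pyrimidine enzyme CAD. The 10 genes make up 10 of the 31907 gene names counted in the series. The set was chosen by name with the measured counts of these libraries already known, so the values given here describe the genes and are not independent evidence for a direction. The measurements are 4 RNA sequencing libraries of HGC-27, an established human gastric cancer cell line. In 2 libraries the cells had been treated with PBS, the vehicle, and in 2 with 200 ng/ml of recombinant IL-17B (rIL-17B), all for 48 h. Nothing in the sample labels says whether replicates were separate cultures, so the spread between them may be technical. The labels' library protocol speaks of monocytes, whereas every sample is labelled HGC-27.

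In the urea cycle, CPS1 joins ammonia and bicarbonate into carbamoyl phosphate inside mitochondria, ornithine transcarbamylase (OTC) passes it to ornithine to give citrulline, and ASS1, ASL and arginase then give argininosuccinate, arginine, and urea with ornithine. The whole cycle runs in the liver, and CPS1 is also known from the small intestine and from some tumors. Ornithine is the branch point: OAT directs it towards proline and glutamate, and ODC1 turns it into putrescine, from which spermidine and spermine are built. CAD makes carbamoyl phosphate in the cytosol for pyrimidine synthesis, so that CPS1 and CAD produce the same metabolite in different compartments.

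The start sites of the genes differed in base composition, and the stretches below show this contrast for CPS1, CAD and ODC1. Sequences and start sites were taken from RefSeq on GRCh38.p14, which gave 14 windows for the 10 genes, each with 250 bases before and 50 bases after an annotated start. GC content was 45.3%, 40.3% and 36.7% in the 3 windows of CPS1 and 40% in that of ARG1, and between 61.3% and 80.7% in the windows of the other 8 genes. The median of all 35116 windows was 58.7%. The first stretch lies before the third CPS1 start, at chr2:210593105-210593354 on the plus strand inside the CPS1 gene and outside its exons, and has 33.6% GC and 3 CG dinucleotides in 250 bases.
CPS1: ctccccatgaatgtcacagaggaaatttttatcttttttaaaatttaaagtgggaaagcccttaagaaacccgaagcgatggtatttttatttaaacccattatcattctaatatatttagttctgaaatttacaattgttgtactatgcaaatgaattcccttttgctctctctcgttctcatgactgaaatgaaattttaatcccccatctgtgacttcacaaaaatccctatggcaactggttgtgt
The CAD stretch covers the 190 bases before its start, at chr2:27217179-27217368 on the plus strand outside annotated exons, with 69.5% GC and 19 CG dinucleotides.
CAD: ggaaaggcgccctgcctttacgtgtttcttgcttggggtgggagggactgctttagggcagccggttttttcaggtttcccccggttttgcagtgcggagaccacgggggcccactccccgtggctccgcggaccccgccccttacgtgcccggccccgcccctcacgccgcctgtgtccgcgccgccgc
The ODC1 stretch covers 108 bases before a start of that gene, at chr2:10448013-10448120 on the minus strand inside the gene and outside annotated exons, with 84.3% GC and 16 CG dinucleotides. Capitals mark an E-box, the letters CACGTG.
ODC1: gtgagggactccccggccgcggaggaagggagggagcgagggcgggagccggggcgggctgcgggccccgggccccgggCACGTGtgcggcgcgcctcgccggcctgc

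The E-box CACGTG, which reads the same on both strands, is the textbook binding sequence of MYC with its partner MAX, and ODC1 and CAD are textbook MYC target genes. These letters were found in 3 of the 14 windows, belonging to CPS1, ASS1 and ODC1, and in 7.26% of all windows of the table. The 30 bases around each site not yet shown are given with the E-box in capitals. In CPS1 the site starts 46 bases before the second start, at chr2:210519660-210519689 on the plus strand within an annotated CPS1 exon.
CPS1 E-box: tctagacacaggCACGTGacccaagcccca
In ASS1 it starts 71 bases before the second start, at chr9:130444878-130444907 on the plus strand, outside annotated exons.
ASS1 E-box: gcgcgtccccgcCACGTGtccccggtcacc
ODC1 held a second site, at position 6 after the same start as above, at chr2:10447990-10448019 on the minus strand, inside the gene and outside annotated exons.
ODC1 E-box: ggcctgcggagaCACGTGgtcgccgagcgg
The windows of CAD and of the other 6 genes did not hold these letters, which says nothing of sites outside the windows, of other sequences or of the factors.

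After gene names had been made unique, the libraries held between 12888029 and 17555879 counts. Levels are given as CPM, a gene's count per 1000000 counts of its library, and values are listed in the order of replicates 1 and 2. A count of 3, taken as the limit of detection, amounted to 0.171 to 0.233 CPM, which covers counting error only. The treated libraries did not resemble each other. Compared over the genes that passed filters on low counts, their counts gave a chi-square per degree of freedom of 140. This value was 3.66 between the PBS libraries and 6.55 and 8.71 between rIL-17B replicate 2 and the PBS libraries. rIL-17B replicate 1 stood apart, at 180 and 173 from the PBS libraries, and each library is therefore given on its own. Fibroblast markers moved with this library: the summed level of the 8 genes was 51802 and 50696 CPM under PBS, 700 CPM in rIL-17B replicate 1 and 43302 CPM in replicate 2. Of the epithelial markers, KRT8 and KRT18 had between 165 and 1457 CPM, whereas EPCAM had at most 78 counts and CDH1 at most 11 in any library. Within this list KRT19 had 47 and 43 counts under PBS, 1 in rIL-17B replicate 1 and 58 in replicate 2, and VIM had 727 and 706 CPM under PBS and 280 and 615 CPM under rIL-17B. Markers of monocytes and macrophages summed to between 8.62 and 14.3 CPM. Of these 10 markers, 3 and 3 had at most 3 counts under PBS, 8 in rIL-17B replicate 1 and 4 in replicate 2. CSF1R made up most of the sum in rIL-17B replicate 1, with 3.90 and 5.59 CPM under PBS and 8.14 and 6.15 CPM under rIL-17B. Bulk libraries cannot tell fewer cells of a type from less RNA per cell.

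CPS1 was the most abundant of the 10 transcripts, and its level was above both PBS libraries in both rIL-17B libraries, by different amounts. The gene spans chromosome 2 from 210477682 to 210679107 on the plus strand (GENCODE 29, GRCh38). It had 1077 and 1009 CPM in PBS replicates 1 and 2, 2483 CPM in rIL-17B replicate 1 and 1369.5 CPM in rIL-17B replicate 2, from 17125, 13000, 36286 and 24043 counts. The groups did not overlap, and the distance between the treated libraries was wider than the gap between the groups. rIL-17B replicate 1 was 2.31-fold and 2.46-fold above the PBS libraries, and replicate 2 was 1.27-fold and 1.36-fold above them. The means were 1043 ± 48.1 CPM under PBS and 1926 ± 787 CPM under rIL-17B (SD, n = 2 each). In edgeR's quasi-likelihood fit the log2 fold change was 0.80 with a standard error of 0.30, and the adjusted p was 0.661. By count CPS1 ranked 65 in both PBS libraries, 20 in rIL-17B replicate 1 and 44 in replicate 2. CPS1-IT1, an RNA annotated within CPS1 on the same strand, had 9 and 10 counts under PBS and 22 and 15 under rIL-17B, far fewer than CPS1 itself.

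**Figure D1:**
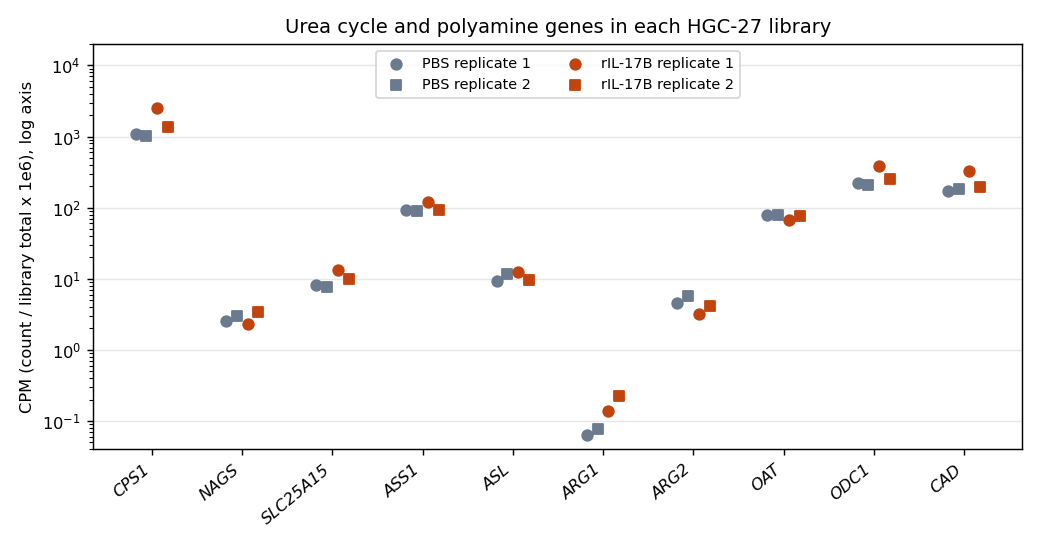
CPM of the 10 genes in each library on a log axis, 1 point per library, PBS in grey and rIL-17B in orange. CPS1 lay highest, between 1009 and 2483 CPM, and ARG1 lowest, with 4 counts or fewer in every library.

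Of the genes that act next to CPS1 in mitochondria, NAGS was low and OTC was at or near 0 in every library. NAGS makes N-acetylglutamate, without which CPS1 is inactive, and lies on chromosome 17 from 44004546 to 44009063. It had 2.58 and 3.03 CPM under PBS and 2.33 and 3.36 CPM under rIL-17B, from 34 to 59 counts per library. The groups overlapped, with the lowest and the highest value both in treated libraries. The NAGS log2 fold change was -0.03 with a standard error of 0.38, and its sign changed when single libraries were left out. OTC, the next enzyme of the cycle, had 0 counts in 3 libraries and 1 count in rIL-17B replicate 2, which is under the limit of detection.

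SLC25A15 carries ornithine into mitochondria in exchange for citrulline and lies on chromosome 13 from 40789412 to 40810111. It had 8.24 and 7.76 CPM under PBS and 13.1 and 9.91 CPM under rIL-17B. Both treated libraries lay above both PBS libraries, with means of 7.998 ± 0.338 and 11.5 ± 2.23 CPM (SD, n = 2 each). The log2 fold change of SLC25A15 was 0.44 with a standard error of 0.22. Its 5 named pseudogenes had at most 7 counts together in any library, against 100 to 191 counts of SLC25A15. SLC25A2, the other ornithine carrier, had no count.

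The cytosolic enzymes that make arginine were present and differed little between the groups. ASS1 forms argininosuccinate from citrulline and aspartate and lies on chromosome 9 from 130444929 to 130501274. It had 91.8 and 89.7 CPM under PBS and 119 and 92.9 CPM under rIL-17B. The treated libraries lay above the PBS libraries, but replicate 2 only by 1.01-fold and 1.04-fold. The log2 fold change of ASS1 was 0.14 with a standard error of 0.12, and its 11 named pseudogenes had at most 42 counts together, against at least 1156 counts of the gene. ASL, which splits argininosuccinate into arginine and fumarate, lies on chromosome 7 from 66075798 to 66093558 and overlaps AC068533.4 on the same strand. It had 9.37 and 11.5 CPM under PBS and 12.3 and 9.63 CPM under rIL-17B. The groups of ASL overlapped, and its log2 fold change lay near 0 (standard error 0.22) with a sign that depended on the normalization.

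Arginase, which closes the cycle by splitting arginine into urea and ornithine, was represented by the mitochondrial form. ARG1, the liver form on chromosome 6 from 131573144 to 131584332, had 1 and 1 counts under PBS and 2 and 4 counts under rIL-17B. In 3 of the 4 libraries it was at or under the limit of 3 counts, it did not pass the filter on low counts, and no fold is given. ARG2 on chromosome 14 from 67619798 to 67651720 had 4.53 and 5.74 CPM under PBS and 3.15 and 4.16 CPM under rIL-17B. Both treated libraries lay below both PBS libraries, with replicate 2 close to PBS replicate 1 at 73 against 72 counts. The ARG2 log2 fold change was -0.55 with a standard error of 0.34. ARG1 and ARG2 each overlap a gene on the other strand, MED23 and VTI1B, and reads of such pairs cannot be told apart where counting ignores strand.

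OAT and ODC1, which both use ornithine, lay on different sides of the PBS libraries. OAT on chromosome 10 from 124397303 to 124418976 turns ornithine into glutamate semialdehyde, the precursor of proline and glutamate. It had 79.7 and 78.8 CPM under PBS and 68.0 and 75.1 CPM under rIL-17B. The treated libraries were both lower, by 0.853-fold to 0.952-fold, and the log2 fold change of OAT was -0.21 with a standard error of 0.14. ODC1, the rate-limiting enzyme of polyamine synthesis, lies on chromosome 2 from 10439968 to 10448504 on the minus strand. It had 223 and 206 CPM under PBS and 384 and 251 CPM under rIL-17B, with means of 215 ± 11.9 and 317 ± 94.7 CPM (SD, n = 2 each). Both treated libraries lay above both PBS libraries, replicate 1 by 1.72-fold and 1.86-fold and replicate 2 by 1.12-fold and 1.21-fold. The log2 fold change of ODC1 was 0.48 with a standard error of 0.21.

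CAD, which carries the entry steps of pyrimidine synthesis in a single protein, lies on chromosome 2 from 27217390 to 27243943. It had 171 and 183 CPM under PBS and 331 and 195 CPM under rIL-17B, with means of 177 ± 8.60 and 263 ± 96.3 CPM (SD, n = 2 each). The groups did not overlap, although replicate 2 was only 1.07-fold above the higher PBS library. The log2 fold change of CAD was 0.49 with a standard error of 0.25.

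**Figure D2:**
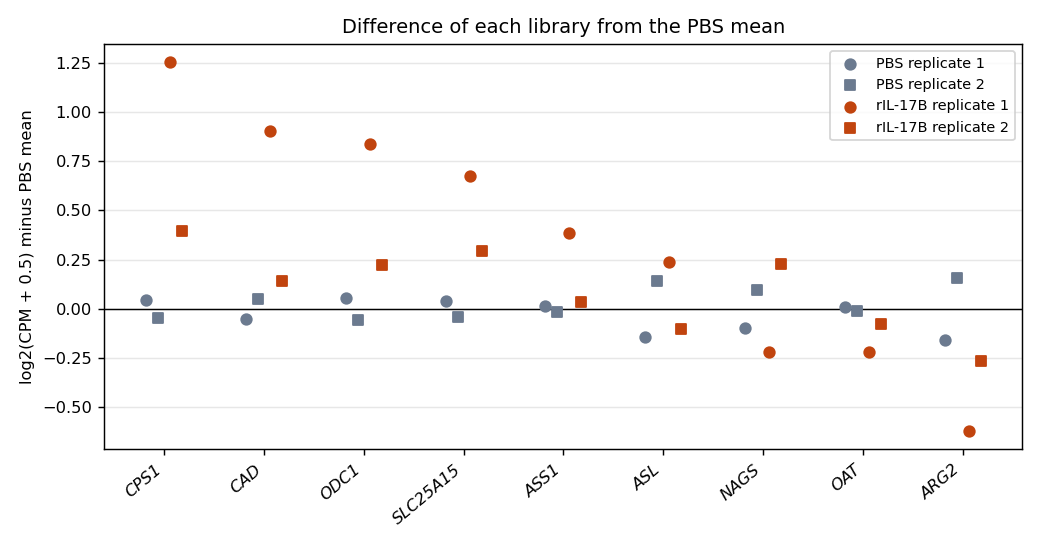
Difference of each library from the PBS mean on the log2(CPM + 0.5) scale for the 9 genes tested, 1 point per library. CPS1, CAD, ODC1 and SLC25A15 stood at 0.68 to 1.25 in rIL-17B replicate 1 and at 0.14 to 0.39 in rIL-17B replicate 2, and ARG2 lowest in both.

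Of the 9 genes that passed the filter on low counts, 5 lay above both PBS libraries in both treated libraries (CPS1, ASS1, CAD, ODC1 and SLC25A15), 2 below (ARG2 and OAT), and 2 overlapped (NAGS and ASL). Across all 16361 genes tested, 31.5% lay above and 27.5% below, so a gene without overlap was common in these libraries. The sides were the same for all 10 genes after TMM normalization. The median log2 fold change of the 9 genes was 0.14, against -0.03 over all genes tested, and 5 of the 9 were positive, against 7753 of the 16361. By the edgeR quasi-likelihood test (Benjamini-Hochberg adjustment, two-sided) 0.0% of the genes tested passed an adjusted p of 0.05. The same test gave an unadjusted p under 0.05 for 226 genes, and DESeq2 for 457 with 0 past the adjusted threshold. The 9 adjusted p values from edgeR lay between 0.661 and 0.994, so none of the differences named above passed the threshold. The value of 0.661 was also the smallest over all genes tested, and so does not measure a single gene against its own replicates. Before adjustment the smallest of the 9 p values in the edgeR test was 0.065, for CPS1.

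Each treated library was also compared with both PBS libraries, without a test and with 0.5 CPM added to each value. CPS1 was the single gene of the 9 that was at least 2-fold higher in rIL-17B replicate 1, a distance reached by 1.57% of all genes tested. CAD was the nearest gene below this limit, at 1.94-fold and 1.81-fold above the PBS libraries. At 1.5-fold, CPS1, CAD, ODC1 and SLC25A15 were higher, where 13.6% of all genes were. None of the 9 was lower by 2-fold or 1.5-fold in that library, distances at which 17.1% and 22.7% of all genes were lower. In rIL-17B replicate 2 none of the 9 was 1.5-fold away in either direction, and few genes were: 0.391% were 1.5-fold higher and 0.0244% 2-fold higher, and 1.75% were 1.5-fold lower and 0.134% 2-fold lower.

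The tests depended on which treated library was kept. Without rIL-17B replicate 1, CPS1 was the single gene of the 9 past the threshold, with a log2 fold change of 0.39 (adjusted p = 5.60e-05 in edgeR's quasi-likelihood test), where 0.643% of all genes were higher and 2.30% lower. Without rIL-17B replicate 2, ASS1, CAD, CPS1, ODC1 and SLC25A15 were higher and ARG2 and OAT lower, where 23.2% of all genes were higher and 31.9% lower. In both fits the remaining treated library is assumed to vary as much as the PBS libraries, so they describe that library and not the treatment. The fibroblast markers, low in rIL-17B replicate 1 and slightly lower than PBS in replicate 2, moved the opposite way to CPS1, and their part in these differences was not tested.

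Levels of different genes were set side by side only per length, as counts per kilobase of annotated exon scaled to 1000000 over all genes of a library. On this scale CPS1 had 354 and 335 under PBS and 808 and 452 in rIL-17B replicates 1 and 2, which placed it above 99.1% of the genes in the PBS libraries. ODC1 followed with 266 and 249 under PBS and 454 and 300.0 under rIL-17B. ASS1 (105 to 136), CAD (71.9 to 138) and OAT (70.4 to 83.3) came next, and the range of CAD overlapped that of ASS1 and that of OAT. CPS1 lay above ODC1 within every library, although their ranges over the libraries overlapped. SLC25A15 (15.1 to 24.9), ASL (10.4 to 13.5), ARG2 (4.56 to 8.49) and NAGS (2.89 to 4.23) followed with no overlap between neighbours in this order. ARG1 was lowest, at 0.113 to 0.412.

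**Figure D3:**
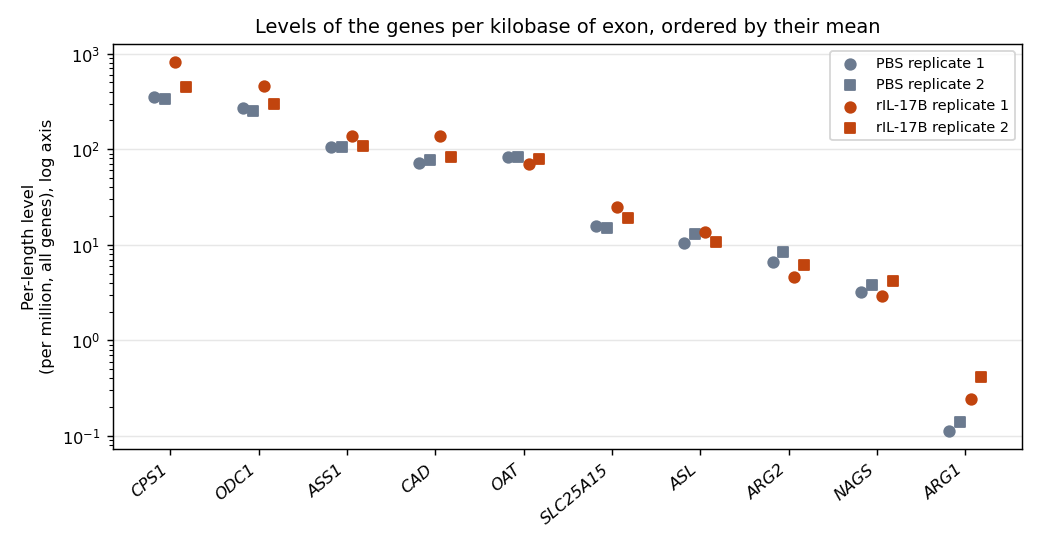
Per-length level of the 10 genes in each library on a log axis, ordered by their mean over the 4 libraries. CPS1 and ODC1 stood first, ASS1, CAD and OAT lay between 70.4 and 138, and ARG1 stayed at or under 0.412.

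Ratios of per-length levels within a library do not depend on its size. The level of CPS1 was 4.92 and 4.31 times that of CAD under PBS and 5.86 and 5.49 times under rIL-17B, and it was 3.32 and 3.18 times that of ASS1 under PBS and 5.92 and 4.17 times under rIL-17B. CPS1 thus lay higher relative to both genes in both treated libraries. The size of such a ratio depends on the length used, and the mean of CPS1 over CAD under PBS was 4.61 with all annotated exons and 7.37 with the longest transcript. CPS1 over NAGS was 109 and 87.3 under PBS and 280 and 107 in rIL-17B replicates 1 and 2, so that this ratio overlapped between the groups. ODC1 over OAT, both of which use ornithine, was 3.20 and 2.99 under PBS and 6.45 and 3.81 under rIL-17B. ODC1 over CAD overlapped between the groups, from 3.20 to 3.70.

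The rest of the pathways was covered by lists of 88 genes, of which 74 were tested and 0 passed the threshold in edgeR's quasi-likelihood test. Of the 74, 29 lay above both PBS libraries in both treated libraries and 20 below, where 31.5% and 27.5% of all genes were. In the pyrimidine synthesis list, whose genes are not all steps downstream of CAD, 9 of 13 genes were above and 1 was below. The median log2 fold change of this list was 0.45. RRM1, a subunit of the enzyme that makes deoxyribonucleotides, had 163 and 159 CPM under PBS and 327 and 206 CPM under rIL-17B, and CTPS1, which makes CTP, had 158 and 158 CPM and 310 and 193 CPM. For both genes, as for CAD, rIL-17B replicate 1 was highest and replicate 2 was above both PBS libraries. In the polyamine metabolism list 4 of 16 genes were above and 6 below, with a median of -0.07, and SMOX and OAZ2 also lay below after TMM normalization. The 4 above were the decarboxylase AMD1, the synthases SRM and SMS, which extend putrescine to spermidine and spermine, and the amino acid transporter subunit SLC3A2. The acetyltransferases SAT1 and SAT2, the oxidase PAOX, the ODC1 inhibitor OAZ1 and the antizyme inhibitors AZIN1 and AZIN2 were below. Some of these distances were small or rested on few counts. OAZ1 had 439 and 438 CPM under PBS and 436 and 430 CPM under rIL-17B. SRM in rIL-17B replicate 2 was only 1.03-fold and 1.003-fold above the PBS libraries. PAOX had 27 and 23 counts under PBS and 5 and 20 counts under rIL-17B. AMD1 had 177 and 183 CPM under PBS and 257 and 193 CPM under rIL-17B, whereas SAT1, which starts polyamine breakdown, had 127 and 126 CPM under PBS and 73.1 and 119 CPM under rIL-17B. EIF5A, the protein that receives hypusine made from spermidine, had 236 and 230 CPM under PBS and 385 and 267 CPM under rIL-17B, and 1 of the 4 hypusine genes was above and 1 below, with DHPS also below after TMM normalization.

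In arginine handling outside the 10 genes, 5 of 12 genes tested were above and 4 below, and after TMM normalization SLC25A12 also lay above and SLC7A1 below. The counts for this list and the next ones stand beside 31.5% of all genes tested above and 27.5% below. AGMAT, named for the hydrolysis of agmatine to putrescine, had 6.60 and 6.60 CPM under PBS and 12.2 and 10.4 CPM under rIL-17B, with a log2 fold change of 0.70 (standard error 0.20). It was the single listed gene that was 1.5-fold higher in replicate 2. NOS2, which makes nitric oxide from arginine, had 1043 and 1322 counts under PBS, 0 in rIL-17B replicate 1 and 791 in replicate 2. In the proline and glutamate branch, entered by OAT, 4 of 14 were above (ALDH4A1 among them, which overlapped after TMM normalization) and 4 below, and the glutamine synthetase gene GLUL had 1742 and 1706 counts under PBS, 0 in rIL-17B replicate 1 and 1516 in replicate 2. In the MYC network 3 of 10 were above (MLX as well after TMM normalization) and 3 below, with MYC at 202 and 214 CPM under PBS and 332 and 225 CPM under rIL-17B, and MAX at 66.2 and 69.4 CPM under PBS and 24.9 and 62.7 CPM under rIL-17B. Of the liver and gut regulators linked to CPS1, 3 of the 5 tested were above (SIRT5, which overlapped after TMM normalization, CPS1-IT1 and FOXA1) and 1 was below, CEBPB. FOXA1 had 2.83 and 1.94 CPM under PBS and 5.68 and 3.53 CPM under rIL-17B, and CEBPB had 36.3 and 34.4 CPM under PBS and 14.4 and 29.1 CPM under rIL-17B. HNF4A, CEBPA, ONECUT1 and FOXA2 had between 0 and 9 counts per library and were not tested.

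**Figure D4:**
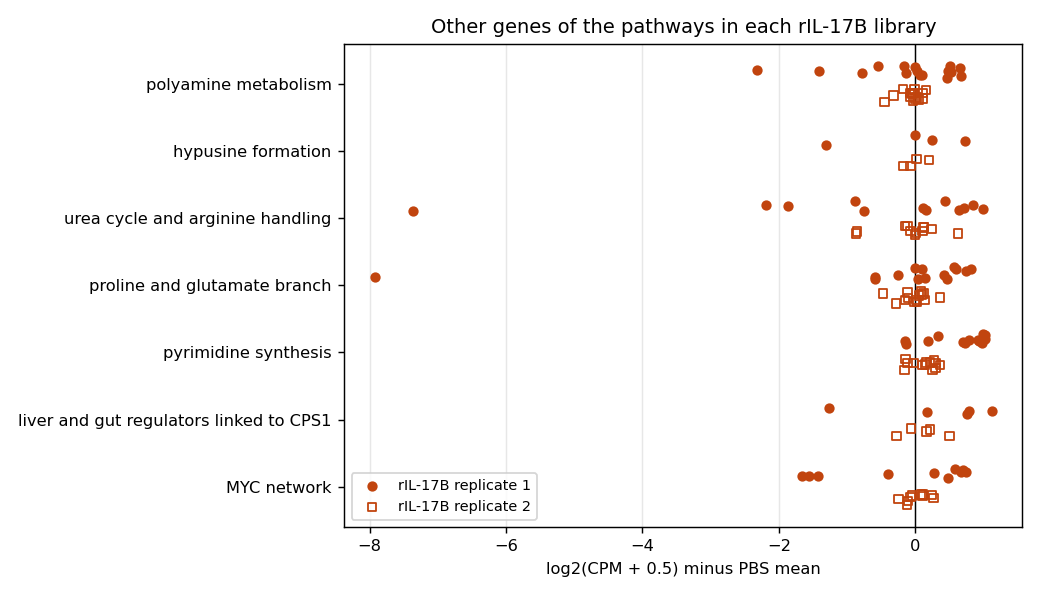
Difference from the PBS mean on the log2(CPM + 0.5) scale for the 74 further genes tested, by list, rIL-17B replicate 1 as filled circles and replicate 2 as open squares. Replicate 1 spread widely in most lists, NOS2 and GLUL lay far to the left at 0 counts, and 9 of the 13 pyrimidine genes lay to the right in both libraries.

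Most other markers of hepatocytes were at or near 0. Of 10 hepatocyte markers, 6 had at most 3 counts in every library, and the sum of the 10 was 10.4 and 10.8 CPM under PBS, 0.0684 CPM in rIL-17B replicate 1 and 9.40 CPM in replicate 2. APOB made up most of this sum, at 128 and 105 counts under PBS and 0 and 143 counts under rIL-17B. ALB had at most 3 counts and APOA1 none. The sum was lowest in the library in which CPS1 was highest. In rIL-17B replicate 2, where CPS1 was also above PBS, it lay only slightly below the PBS libraries. The part of the hepatocyte list in the CPS1 difference was not tested. The 8 enterocyte markers summed to 35.3 and 38.0 CPM under PBS and 64.9 and 42.4 CPM under rIL-17B, with both treated libraries above both PBS libraries, as for CPS1. Most of this sum was ALPI, at 29.5 and 33.1 CPM under PBS and 60.1 and 37.4 CPM under rIL-17B. VIL1 did not show this, with 58 and 35 counts under PBS, 0 in rIL-17B replicate 1 and 51 in replicate 2, nor did CDX2, which had 1.95 and 2.02 CPM under PBS and 3.69 and 1.88 CPM under rIL-17B. FABP1, APOA4 and SI had no count in any library, and the part of this list in the CPS1 difference was not tested. The oligodendrocyte lineage list summed to 369 and 470 CPM under PBS and 129 and 304 CPM under rIL-17B, the opposite direction, and its part was not tested either.

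The genes whose profile was most like that of CPS1 were sought among 9988 genes with a mean of at least 10 CPM, by the largest difference from CPS1 over the 4 libraries on the log2(CPM + 0.5) scale after centring on the PBS mean. The 5 closest were EEF1A2 (0.02), MYPN (0.04), C11orf86 (0.04), KRT17 (0.05) and PDE1A (0.05). EEF1A2, a translation elongation factor gene, had 78.6 and 71.3 CPM under PBS and 176 and 98.8 CPM under rIL-17B. The keratin gene KRT17 had 109 and 107 CPM under PBS and 249 and 137 CPM under rIL-17B. KRT8, one of the epithelial markers, ranked 7 with 601 and 611 CPM under PBS and 1457 and 787 CPM under rIL-17B, and KRT18 ranked 93, whereas VIM of the same list ranked 9134 and KRT19 was too low to be ranked. Of the 10 genes, NAGS, ARG1, ARG2 and SLC25A15 were also too low to be ranked. Among ASS1, ASL, CAD, ODC1 and OAT, CAD was the closest to CPS1, at rank 463, and ODC1 followed at rank 650. Some of the listed pathway genes were closer than CAD, among them RRM1 at rank 189 and CTPS1 at rank 290. With 4 libraries, of which 1 stands apart, this order is a description.

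**Figure D5:**
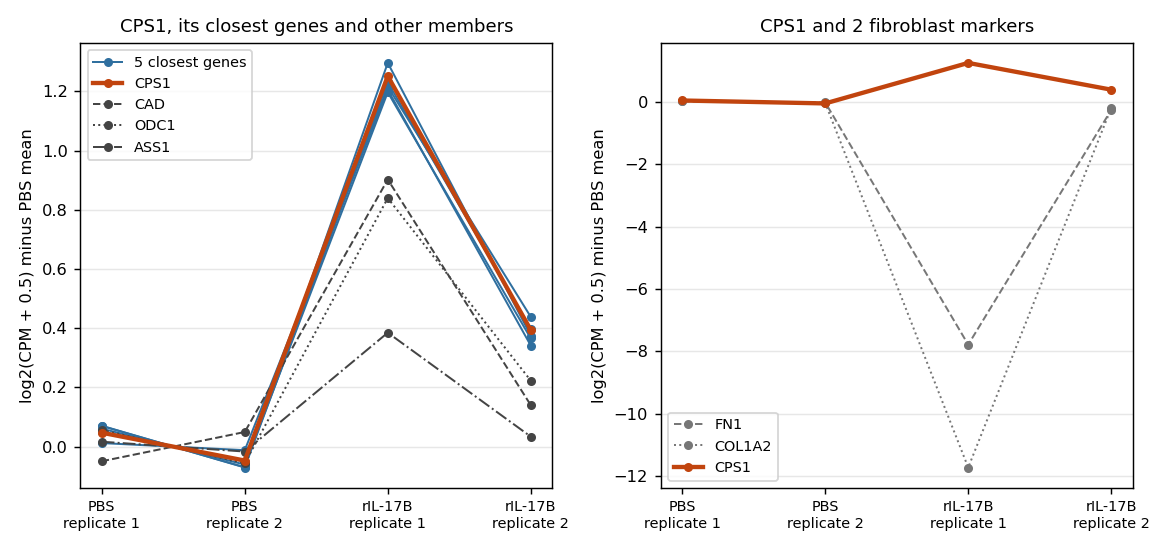
Difference of each library from the PBS mean on the log2(CPM + 0.5) scale: CPS1 with its 5 closest genes, CAD, ODC1 and ASS1 on the left, and CPS1 with the fibroblast markers FN1 and COL1A2 on the right, on another axis range. CPS1 reached 1.25 and 0.39 in rIL-17B replicates 1 and 2, while FN1 had 2172 counts and COL1A2 had 16 counts in replicate 1.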

How the data were processed

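The authors deposited whole-number read counts per gene name, without normalization, for 4 Smart-seq2 libraries primed with oligo-dT and amplified by PCR. The submitters' processing notes name HISAT2 2.1.0, Bowtie2 2.2.3, TopHat2, HTSeq 0.6.0 and hg38, with no roles. Annotation and strand use are not given in the sources used here. Genes missing from a library were given 0 counts, repeated names (83 to 98 per library, equal counts) were used once, and 22 to 25 date-like names per library were left out.

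CPM is the count divided by the library total. The 2 groups were compared by edgeR 4.0.16 under R 4.3.3 (TMM, filterByExpr, quasi-likelihood F test, Benjamini-Hochberg adjustment over 16361 genes, threshold 0.05), and the standard error is the log2 fold change divided by the square root of F. The fit was also run on simulated counts. These gave every library the same spread, so they do not cover a library that stands apart. Per-length levels used the union of GENCODE 29 exons, in which 97.8% of the names were found once. Promoter windows came from RefSeq (GRCh38.p14). Alternatives were upper-quartile normalization, a replicate block, DESeq2 1.42.0, no filter, 0.1 CPM added, a 1.5-fold limit, longest transcripts and leaving out each library. All 10 genes, any gene of the companion and marker lists and the 5 genes most like CPS1 could be named, except for 1 gene of these lists whose values are not reported here. The genes, lists and alternatives were chosen with earlier results of these data known. Library totals set the precision: 12888029 to 17555879 counts.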

Additional observations from a re-analysis of the deposited data

How the results depend on the processing

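0 genes passed the threshold with the replicate block, upper-quartile normalization, DESeq2 and no filter on low counts, both over all genes and over the companion lists. Leaving out single libraries gave between 0 and 9489 genes. These were 0 without either PBS library, 504 of 17103 without rIL-17B replicate 1 and 9489 of 17223 without rIL-17B replicate 2. Between 0 and 52 companion genes passed (4 and 52 without rIL-17B replicates 1 and 2), with 74 tested when all libraries were kept. Of all genes, 0.643% were higher and 2.30% lower without replicate 1, and 23.2% and 31.9% without replicate 2. A gene past the threshold was therefore common in the fit that gave 52. With single libraries left out, the log2 fold change lay between 0.39 and 1.12 for CPS1, 0.14 and 0.77 for CAD, 0.22 and 0.70 for ODC1, 0.30 and 0.57 for SLC25A15, 0.030 and 0.25 for ASS1, -0.36 and -0.083 for OAT and -0.83 and -0.30 for ARG2, each past the threshold without rIL-17B replicate 2 and CPS1 also without replicate 1. NAGS lay between -0.40 and 0.26 (0.075 without PBS replicate 2 and 0.26 without rIL-17B replicate 1). ASL lay between -0.13 and 0.14 (0.14 without PBS replicate 2 and 0.11 without rIL-17B replicate 2), and turned positive with upper-quartile normalization (0.0039) and without the filter (0.0054). The cause was not tested beyond the library left out.

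With the replicate number as a replicate block the log2 fold change of CPS1 was 0.75, and 173 genes had a p below 0.05 before adjustment. The numbers were not shown to pair the libraries: same-numbered libraries deviated together with a correlation of 0.081 across genes, which are not independent, and the block changed no call. At 1.5-fold instead of 2-fold, 4 genes in place of 1 were away from both PBS libraries in rIL-17B replicate 1. With all libraries, 31.5% of all genes tested lay above both PBS libraries and 27.5% below. The number of the 10 genes above was 6, with ARG1 included although it did not pass the filter on low counts. It lay between 6 and 7 with single libraries left out, and the number below was 2 and lay between 2 and 3. For the companion genes these counts were 29 (29 to 48, the highest without rIL-17B replicate 2) and 20 (22 to 28), and TMM changed the side of 8 of 83. Leaving out a library can only keep or raise such a count, so these ranges do not test how firm it is. These counts were added after the data were seen. The per-length ratio of CPS1 to CAD with PBS was 4.61, and 7.37 with the longest transcript as the length. Values under 3 counts (ARG1, OTC) are limited by depth.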
